A study of Rattus norvegicus with 6 samples.

Results

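Clustered protocadherins are cadherin-like adhesion molecules encoded in 3 neighbouring gene clusters, alpha, beta and gamma. They were taken as every row of the deposited gene table whose symbol starts with Pcdha, Pcdhb or Pcdhg, whatever its values. The rule found 36 of 22864 rows, namely 1 alpha, 18 beta and 17 gamma genes. In the alpha and gamma clusters each promoter drives its own variable exon, which is spliced to constant exons shared by the whole cluster, whereas a beta gene is a single exon with its own promoter. A neuron chooses a few of these promoters, a choice that depends on DNA methylation, the insulator protein CTCF and cohesin, and the C-type isoforms at the ends of the alpha and gamma clusters are expressed more uniformly. The proteins bind identical proteins on other cells, and this recognition lets the branches of 1 neuron avoid each other.

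The libraries are bulk RNA-seq of dorsal root ganglia (DRG), which hold the cell bodies of sensory neurons together with satellite glia, Schwann cells, vessels, fibroblasts and macrophages. Ipsilateral L4 to L6 DRG of male wild-type rats were taken on day 7, and the strain and age were not given in the sources used here. In the CPIP groups (chronic post-ischemia pain, a rat model of complex regional pain syndrome) pentobarbital-anaesthetised rats wore a tight O-ring above 1 hind paw, which stopped its circulation for 3 h. The 3 groups were Sham+Veh (the same anaesthesia with no ring, then intrathecal vehicle), CPIP+Veh (the ring, then vehicle) and CPIP+ETA (the ring, then intrathecal etanercept, a decoy receptor that binds TNF). Injections were given daily from 2 days after the ring, so the groups share anaesthesia, intrathecal injection and sex. Each group had 2 libraries. The labels do not say whether these came from separate animals, so every p-value below measures the spread between these libraries, which may be technical. In bulk RNA fewer cells of a type and less RNA per cell cannot be told apart.

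Library totals ran from 18284891 to 19981081 expected counts (estimates that can hold fractions of a read). Levels are counts scaled to library size (CPM) with TMM, a correction for library composition whose factors ran from 0.994 to 1.005. The DRG identity of the tissue could be read from 14 neuron markers, all present, whose summed level was between 41189 and 45807 CPM in the 6 libraries. The summed levels were 205 to 209 CPM in Sham+Veh, 153.3 to 153.4 in CPIP+Veh and 148 to 176 in CPIP+ETA for 7 pericyte and smooth muscle markers. For 8 endothelial markers they were 209 to 217, 170.0 to 178 and 171 to 198 CPM, and for 7 fibroblast markers 3629 to 3877, 2849 to 3483 and 2304 to 2936 CPM. These 3 lists were lower in both CPIP groups, with no member of any at 0. Macrophage markers (7) summed to 132 to 142, 126 to 143 and, in both CPIP+ETA libraries, 171 CPM. Of these 7, for CPIP+ETA against CPIP+Veh, 4 had a log2 fold change above 0 and 3 below. Their median was 0.07, and the highest was 1.65 for Cd163. The 9 satellite glia markers (1141 to 1466 CPM over all libraries) and 8 Schwann cell myelin markers (9351 to 14108 CPM) overlapped between the groups. The 8 markers of spinal cord cells summed to 13.9 to 23.4 CPM, with Olig2 at a mean of 0.00844 CPM. The part of these cell types in the protocadherin values below was not tested.

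Of the 36 members, 34 were matched by identifier to a gene record of the GRCr8 rat assembly, all under the same symbol, and 30 had a promoter sequence there. The alpha cluster appears as the single row Pcdha4 (gene 116741), whose record lists Pcdha1 to Pcdha13 and both alpha C-type isoforms, Pcdhac1 and Pcdhac2, as synonyms. It may therefore stand for the whole alpha cluster. Of the 5 C-type isoforms only Pcdhgc3 and Pcdhgc5 have rows of their own. Pcdhgb4 and Pcdhgb5 were not matched, and the records of other gamma genes carry those names as older synonyms. Some members are similar to each other in sequence, which was compared here only for promoters, and gamma isoforms share their constant exons. Of the 211 member values above 0, 4 (1.9%) were whole numbers, against 18.6% of the values of all genes tested and 34.7% of those of 12 non-clustered protocadherins. A fraction is what a counting program gives where it divides reads between genes, so the split of reads between members is uncertain. How far this sharing moves the values of single members was not tested.

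Promoter sequences are shown because each member is expressed from its own promoter, and coding sequences were not examined. Letters are those of RefSeq for GRCr8, a later build than the Rnor_6.0 named in the submitters' processing notes, on the plus strand, and all lie upstream of the annotated start. Capitals mark the match to GNGNCGCT (N is any base), a motif that most of the members' promoters hold. It was found by viewing these promoters, and both strands of each 300-base window, from 250 bases before to 50 after the start, were searched.
Pcdha4, chr18:28876954-28876997, match 197 bases upstream: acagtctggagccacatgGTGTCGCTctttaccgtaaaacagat
Pcdhb3, chr18:29285597-29285640, match 60 bases upstream: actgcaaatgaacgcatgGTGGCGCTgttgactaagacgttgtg
Pcdhb5, chr18:29302397-29302440, match 51 bases upstream: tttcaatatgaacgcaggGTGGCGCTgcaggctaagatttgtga
Pcdhb6, chr18:29320145-29320188, match 228 bases upstream: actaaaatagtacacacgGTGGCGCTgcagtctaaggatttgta
Pcdhb8, chr18:29339251-29339294, match 207 bases upstream: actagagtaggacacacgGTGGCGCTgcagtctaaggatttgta
Pcdhga2, chr18:29745076-29745119, match 95 bases upstream: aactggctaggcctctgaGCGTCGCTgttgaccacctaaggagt
Pcdhga7, chr18:29794198-29794241, match 36 bases upstream: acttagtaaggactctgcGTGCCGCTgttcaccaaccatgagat
Pcdhga8, chr18:29804993-29805036, match 102 bases upstream: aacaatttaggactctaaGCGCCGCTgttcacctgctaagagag
Pcdhga9, chr18:29815776-29815819, match 51 bases upstream: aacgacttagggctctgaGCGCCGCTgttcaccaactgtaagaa
Pcdhgc3, chr18:29884059-29884102, match 168 bases upstream: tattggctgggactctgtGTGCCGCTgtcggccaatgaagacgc

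The motif was found in 26 of the 30 promoters (86.7%), against 4549 of 33469 promoters of the whole table (13.6%). By cluster it was in 1 of 1 alpha, 14 of 15 beta and 11 of 14 gamma promoters, and the windows without it were those of Pcdhb1, Pcdhga1, Pcdhga4 and Pcdhgc5. GGTGGCGCTG, the 10-letter word held by the most beta promoters, was in 14 of 15 beta promoters, in 0 of 15 alpha and gamma promoters and in 74 of all promoters (0.221%). The 4 letters CGCT alone, which lie within both longer motifs, were in 27 of 30 promoters against 60.9% of all. Both longer motifs were picked from these same promoters, so their shares do not test for enrichment. Among beta promoters the match to GNGNCGCT lay 45 to 97 bases upstream, except in Pcdhb6 and Pcdhb8, where it lay 228 and 207 bases upstream. The promoter windows of Pcdhb6 and Pcdhb8 share an identical run of 49 bases, the longest among 435 pairs of members, whose median longest run was 9 bases. Members with the motif had log2 fold changes on both sides of 0 in each comparison below.

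The 3 clusters together took 0.0636% to 0.0684% of the counts of a library. The alpha row held 44.0% to 47.3% of the clustered protocadherin CPM, the beta genes 10.4% to 11.7% and the gamma genes 41.5% to 45.2%. Summed beta levels were 69.3 and 66.8 CPM in Sham+Veh, at 73.9 and 79.9 with CPIP+Veh and at 72.2 and 71.9 with CPIP+ETA. Both CPIP+Veh libraries lay above both sham libraries and both etanercept libraries. The log2 ratio of the means was 0.18 for CPIP+Veh against Sham+Veh and -0.09 for CPIP+ETA against CPIP+Veh. From Sham+Veh to CPIP+Veh the mean beta sum went from 68.1 to 76.9 CPM. Pcdhb3 rose most, with means of 5.47 and 11.5 CPM, while of the 17 beta genes tested 12 were above 0 and 5 below. The difference of the sums is therefore net of falls, such as that of Pcdhb6 (means of 4.32 and 0.91 CPM). Without Pcdhb3 the beta sums of the groups overlap, with Pcdhb6, which fell, still counted. The smallest p that an exact two-sided permutation test of 2 against 2 libraries can give is 0.33, so that test cannot reach 0.05 here, and no model was fitted to the sums. Summed gamma levels were 291 and 280.0 CPM in Sham+Veh, at 273 and 297 with CPIP+Veh and at 279.7 and 277 with CPIP+ETA. The gamma sums of the sham and CPIP+Veh libraries overlapped, with a log2 ratio of the means of 0.00 (-0.002). Pcdhgc3 alone made up 31.6% to 33.9% of the gamma sum. How evenly the reads were spread over members can be given as an effective number, the number of equally expressed genes that would give the same Shannon entropy. It was 14.5 and 15.1 for the beta cluster in Sham+Veh, at 14.2 and 14.2 with CPIP+Veh and at 14.0 and 14.2 with CPIP+ETA, and 10.1 to 10.7 for the gamma cluster in all libraries.

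**Figure D1:**
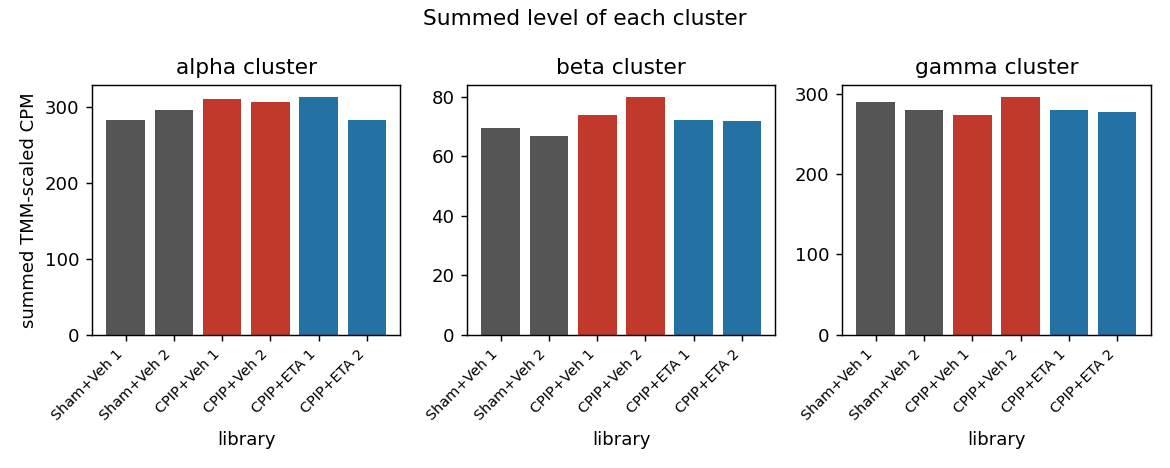
Summed TMM-scaled CPM (y axis, from 0) of the alpha, beta and gamma clusters in each of the 6 libraries (x axis, 1 bar per library, coloured by group). Beta sums lie between 66.8 and 79.9 CPM with both CPIP+Veh libraries highest. They overlap between the groups once Pcdhb3 alone is left out. The gamma sums of Sham+Veh and CPIP+Veh overlap.

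The members' levels were spread over a wide range. Pcdha4 had the most reads, with a mean of 299 CPM over the 6 libraries, followed by Pcdhgc3 at 93.1 CPM. On the CPM scale, which does not correct for length, Pcdhb2 had the lowest mean of the beta genes tested (0.926 to 1.36 CPM) and Pcdhgb4 of the gamma genes (2.07 to 3.12 CPM). Pcdhb1 had no reads in 5 libraries and 2 reads in CPIP+Veh 2. A count of 0 allows up to 3 counts, or 0.151 to 0.164 CPM, and Pcdhb1 was the 1 member that did not pass the filter on low counts. The highest over the lowest library was 1.11 for Pcdha4, 1.13 for Pcdhga10 and 1.14 for Pcdhgc3. It was 4.27 for Pcdhb21, 7.74 for Pcdhga1 and 9.17 for Pcdhb6. A level can be compared between genes only per length, which could be done for 14 beta genes whose gene record spans less than 4 kb. On that scale Pcdhb3 had the highest mean over the 6 libraries, 3.53, with a range of 1.82 to 4.62 CPM per kb, but not in Sham+Veh alone, where it was at 1.82 and 2.46 and Pcdhb9 at 2.68 and 1.83. Pcdhb9 (mean 2.09), Pcdhb19 (2.00), Pcdhb8 (1.92), Pcdhb7 (1.82) and Pcdhb20 (1.72) followed, and their ranges overlapped. Pcdhb6 (0.61), Pcdhb2 (0.406) and Pcdhb21 (0.397) had the lowest means, that of Pcdhb6 through its CPIP libraries, since its sham libraries were at 1.79 and 0.781.

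**Figure D2:**
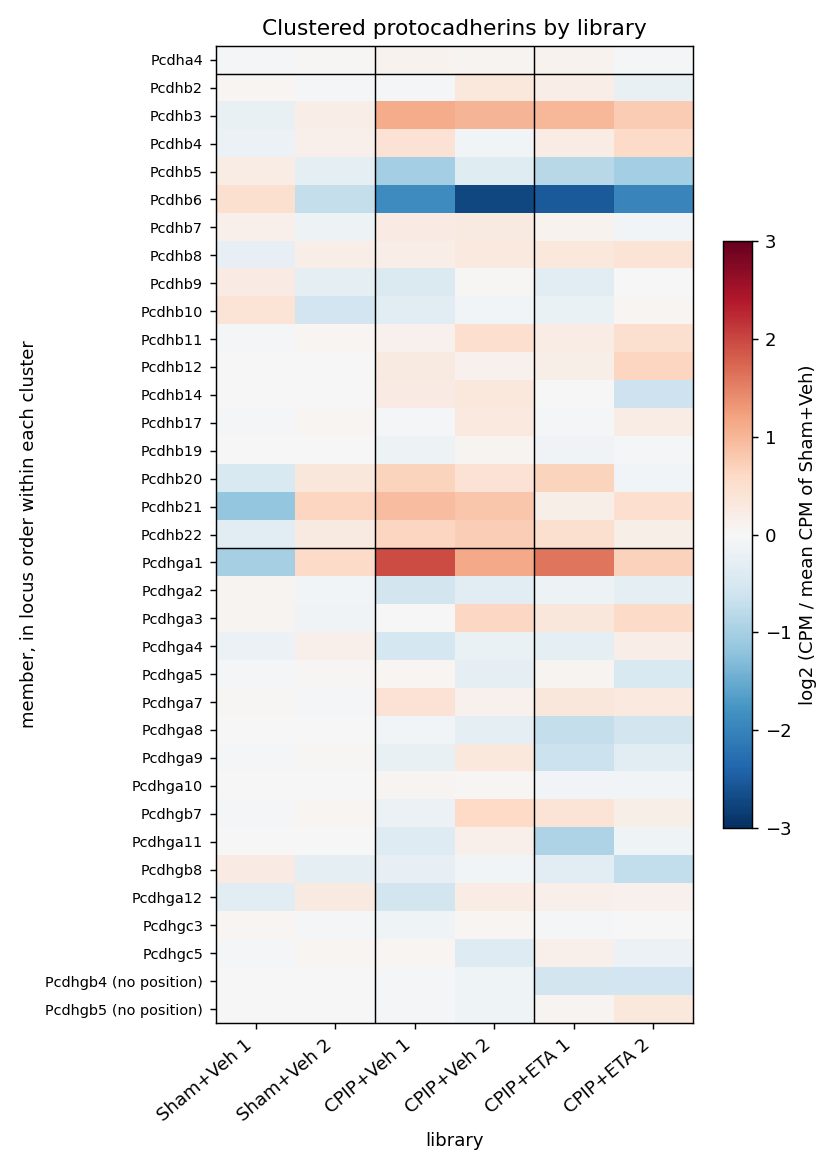
Heat map of the 35 members tested (rows, in locus order within each cluster, with the 2 unmatched gamma genes last) in the 6 libraries (columns), coloured by log2 of CPM over the mean CPM of Sham+Veh. Pcdhb6 is the lowest member in all 4 CPIP libraries (-1.89 to -2.72), Pcdhga1 the highest in 3 of them (1.15 to 1.96), and the library medians lie between -0.03 and 0.12.

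The comparison of CPIP+Veh with Sham+Veh asks what limb ischemia and reperfusion left in the DRG on day 7. Single beta and gamma genes lay furthest from sham, some above and some below, while the alpha row and Pcdhgc3, the 2 members with the most reads, lay within 0.10 of it on the log2 scale. Pcdhb3 and Pcdhga1 were higher in both CPIP+Veh libraries than in both sham libraries, and Pcdhb6 and Pcdhga2 were lower in both. With edgeR's quasi-likelihood test and Benjamini-Hochberg adjustment over 15531 genes, 0 of 35 members passed at an adjusted p under 0.05, against 3 genes (0.0193%) of all tested. DESeq2 called 1 member, Pcdhb3 (adjusted p = 0.0148), against 0.315% of all genes, and limma-voom called 0, against 0.0129%.

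Pcdhb3, the beta gene with the highest mean over all 6 libraries, was at 4.66 and 6.29 CPM in Sham+Veh, at 11.8 and 11.1 with CPIP+Veh and at 10.9 and 9.31 with CPIP+ETA. The 4 CPIP libraries all lay above the 2 sham libraries. For CPIP+Veh against Sham+Veh the log2 fold change was 1.07 (SE 0.17, edgeR adjusted p = 0.375), a fold of 2.09 from 5.47 ± 1.16 to 11.5 ± 0.459 CPM (mean ± SD, n = 2). It lay between 0.87 without Sham+Veh 1 and 1.30 without Sham+Veh 2.

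Pcdhb6 lies a few genes further along the cluster and was at 6.01 and 2.63 CPM in Sham+Veh, at 1.16 and 0.656 with CPIP+Veh and at 0.756 and 1.09 with CPIP+ETA. All 4 CPIP libraries were below both sham libraries, which themselves differed from each other beyond counting error. The sham counts of 111 and 48.5, rounded to whole numbers, have exact 95% Poisson intervals of 91.3 to 134 and 35.4 to 63.6. The log2 fold change was -2.24 (SE 0.50, edgeR adjusted p = 0.695), with means of 4.32 ± 2.39 and 0.91 ± 0.36 CPM (n = 2). Leaving out Sham+Veh 1 gave -1.52, and leaving out Sham+Veh 2 gave -2.71. The DESeq2 adjusted p was 0.108.

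Of the other beta genes, Pcdhb22 was at 2.22 and 3.34 CPM in Sham+Veh and 4.35 and 4.64 in CPIP+Veh, with no overlap. Its log2 fold change was 0.69 (SE 0.25, edgeR adjusted p = 0.938), with 0.44 when Sham+Veh 1 was left out and 1.02 when Sham+Veh 2 was. Pcdhb5, chosen here after its values were seen, was at 5.74 and 4.05 CPM in Sham+Veh and 2.43 and 3.78 in CPIP+Veh (log2 fold change -0.65, SE 0.29), with -0.37 when CPIP+Veh 1 was left out and -1.01 when CPIP+Veh 2 was. Its CPIP+Veh libraries lay below both sham libraries, the nearer by a margin smaller than the spread within either group. Of the 17 beta genes tested 12 had a log2 fold change above 0 and 5 below, with a median of 0.20. Of the 17 gamma genes 6 were above 0 and 11 below (median -0.09), while the gamma sums of these groups overlapped. The mean log2 fold change was 0.05 for the gamma genes and 0.10 for the beta genes. These counts describe members, which are not replicates. Over all genes tested 7606 were above and 7925 below.

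Further rows of the locus fall outside the symbol rule because they carry placeholder symbols, and 3 of them are beta genes in the GRCr8 records. LOC108348771, recorded there as Pcdhb16, was at 1.62 and 1.75 CPM in Sham+Veh and 2.78 and 3.08 in CPIP+Veh. Its log2 fold change was 0.79 (SE 0.23, edgeR adjusted p = 0.938). LOC108348201, recorded as Pcdhb15, was at 2.11 and 1.70 CPM in Sham+Veh and 2.99 and 3.48 in CPIP+Veh (log2 fold change 0.76, SE 0.28, edgeR adjusted p = 0.938). The row recorded as Pcdhb6l, LOC108348233, was at 1.62 and 1.59 CPM in Sham+Veh and 1.77 and 1.66 in CPIP+Veh. The fourth row, RGD1560482, recorded as the pseudogene Pcdhgb1, was at 0.379 and 0.493 CPM in Sham+Veh and 0.861 and 0.555 in CPIP+Veh. All 4 rows were higher in both CPIP+Veh libraries than in both sham libraries, as were 17.6% of all genes tested. Pcdhb6l had the narrowest margin (log2 fold change 0.10, SE 0.29). These rows were singled out after their values were seen.

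In the gamma cluster Pcdhga1 had the highest log2 fold change. It was at 0.975 and 2.90 CPM in Sham+Veh, at 7.54 and 4.29 with CPIP+Veh and at 5.89 and 3.10 with CPIP+ETA. The 4 CPIP libraries were all above the 2 sham libraries, but Sham+Veh 2 and CPIP+ETA 2 differed by less than the spread within either group. The log2 fold change of CPIP+Veh against Sham+Veh was 1.61 (SE 0.55, edgeR adjusted p = 0.938), from 1.94 ± 1.36 to 5.92 ± 2.30 CPM (n = 2). Leaving out Sham+Veh 1 gave 1.03, and leaving out Sham+Veh 2 gave 2.60.

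Pcdhga2, the next gene of the cluster, was at 26.4 and 23.8 CPM in Sham+Veh, at 17.2 and 19.8 with CPIP+Veh and at 22.5 and 20.7 with CPIP+ETA. The groups did not overlap, with CPIP+Veh lowest and CPIP+ETA between the other two. The log2 fold change was -0.44 (SE 0.11, edgeR adjusted p = 0.775) for CPIP+Veh against Sham+Veh. Pcdhga7 was at 23.9 and 22.7 CPM in Sham+Veh and 31.7 and 25.4 in CPIP+Veh, with a log2 fold change of 0.29 (SE 0.12, edgeR adjusted p = 0.938). That value rested on CPIP+Veh 1, without which it was 0.13, and it was 0.45 without CPIP+Veh 2.

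Of the C-type isoforms, Pcdhgc3, the gamma isoform with the most reads and one with known roles in dendrite growth, was at 97.3 and 90.6 CPM in Sham+Veh and 86.3 and 98.4 in CPIP+Veh, and the groups overlapped (log2 fold change -0.02, SE 0.08). Pcdhgc5 was at 19.0 and 20.2 CPM in Sham+Veh and 20.5 and 15.0 in CPIP+Veh, again overlapping (-0.14, SE 0.17). Pcdha4 was at 283 and 296 CPM in Sham+Veh and 311 and 307 in CPIP+Veh, without overlap (0.09, SE 0.06, edgeR adjusted p = 0.948).

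Over all 35 members tested, 19 log2 fold changes of CPIP+Veh against Sham+Veh were above 0 and 16 below. Their median was 0.07, against -0.003 over all genes tested, and it was -0.03 without CPIP+Veh replicate 2. The median size regardless of sign was 0.20, against 0.09 over all genes. Here and in the comparisons below, all genes were not matched to the members for level. Whether low counts enlarge the members' values was not tested. At an unadjusted p under 0.05 there were 4 higher members (Pcdhb3, Pcdhb22, Pcdhga1, Pcdhga7) and 2 lower (Pcdhb6, Pcdhga2), that is 17.1% of the members. Of all genes tested 4.94% reached this, 2.34% higher and 2.59% lower. The libraries of the groups did not overlap for 12 higher and 7 lower members (54.3%), against 37.1% of all genes (17.6% higher and 19.5% lower). The 12 were Pcdha4, 8 beta genes and 3 gamma genes, and the 7 were 2 beta and 5 gamma genes.

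**Figure D3:**
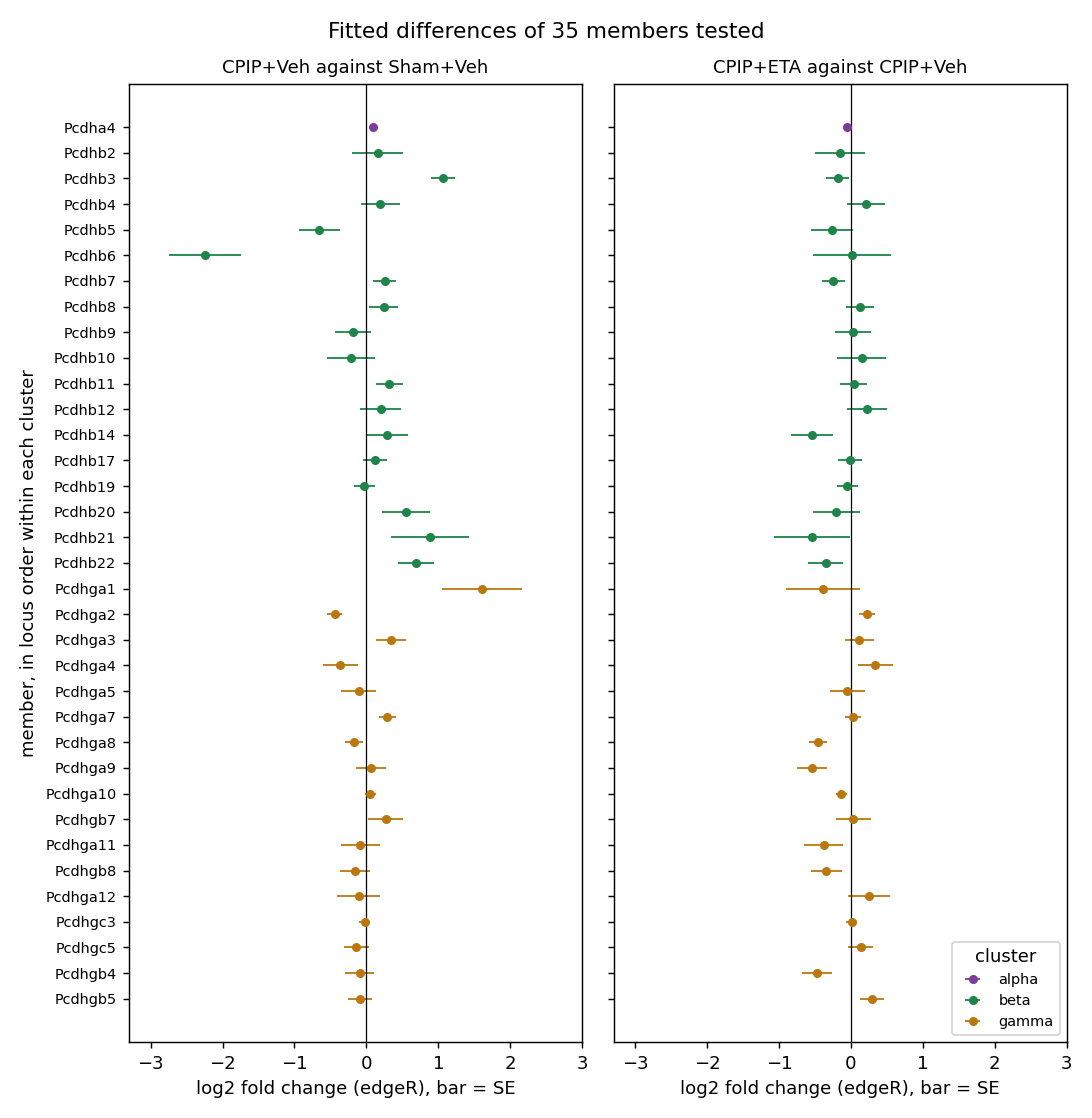
Log2 fold change from edgeR (x axis) with its SE (bar) for each of the 35 members tested (rows, coloured by cluster), for CPIP+Veh against Sham+Veh (left) and CPIP+ETA against CPIP+Veh (right). Values run from -2.24 (Pcdhb6) to 1.61 (Pcdhga1) on the left and from -0.55 (Pcdhb14) to 0.34 (Pcdhga4) on the right, and no member passed the adjusted threshold.

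CPIP+ETA against CPIP+Veh asks what intrathecal TNF blockade added after the injury. The values furthest from 0 were smaller than for CPIP+Veh against Sham+Veh and were lower with etanercept, while the median size regardless of sign was 0.20 in both comparisons (0.09 over all genes here). The 5 furthest from 0 belonged to Pcdhb14, Pcdhga9, Pcdhb21, Pcdhgb4 and Pcdhga8. With edgeR 0 of 35 members passed at an adjusted p under 0.05, as did 0 of all genes tested (0%), and the smallest adjusted p of a member was 0.938. At an unadjusted p under 0.05 there were 0 higher and 2 lower members (5.71%) against 5.15% of all genes (2.42% higher and 2.73% lower), a share near the background. DESeq2 called 0 members and 0.135% of all genes, and limma-voom called 0 of either (0%).

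Pcdhga8 was at 11.8 and 11.4 CPM in Sham+Veh, at 11.0 and 9.58 with CPIP+Veh and at 7.10 and 7.95 with CPIP+ETA. Both etanercept libraries lay below the other 4. The log2 fold change of CPIP+ETA against CPIP+Veh was -0.45 (SE 0.12, edgeR adjusted p = 0.938), from 10.3 ± 1.03 to 7.53 ± 0.599 CPM (n = 2). Pcdhga9 was at 7.04 and 7.44 CPM in Sham+Veh, at 6.18 and 8.98 with CPIP+Veh and at 4.63 and 5.77 with CPIP+ETA. Its etanercept libraries were again the 2 lowest, with a log2 fold change of -0.54 (SE 0.21, edgeR adjusted p = 0.938). That was -0.25 without CPIP+Veh 2, the higher of the pair, and -0.78 without CPIP+Veh 1.

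Pcdhgb4 was at 3.09 and 3.12 CPM in Sham+Veh, at 2.99 and 2.82 with CPIP+Veh and at 2.12 and 2.07 with CPIP+ETA. The libraries of a group lay close together and the etanercept pair was lowest (log2 fold change -0.47, SE 0.21, edgeR adjusted p = 0.938). Pcdhgb4 counts were low, and the exact 95% Poisson intervals of CPIP+Veh 1 (44.9 to 76.1) and CPIP+ETA 1 (30.3 to 56.8) overlapped. Pcdhb14 was at 2.11 and 2.08 CPM in Sham+Veh, at 2.48 and 2.62 with CPIP+Veh and at 2.12 and 1.36 with CPIP+ETA. Its log2 fold change of -0.55 (SE 0.29) was -0.90 without CPIP+ETA 1 and -0.27 without CPIP+ETA 2. Pcdhb22 (3.88 and 3.16 CPM in CPIP+ETA) had a log2 fold change of -0.35 (SE 0.24) and Pcdhb7 (6.94 and 7.11 CPM in CPIP+Veh, 6.30 and 5.55 in CPIP+ETA) one of -0.24 (SE 0.16). Without CPIP+ETA 2 these were -0.21 and -0.16.

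Among the members furthest from sham in CPIP+Veh, Pcdhb3 and Pcdhb21 had both etanercept libraries below both vehicle libraries, while those of Pcdhb6 and Pcdhga1 overlapped. Pcdhb6 differed between CPIP+ETA and CPIP+Veh by a log2 fold change of 0.02 (SE 0.54), with an SE wide enough to hold sizeable differences in either direction. Pcdhb3 differed by -0.18 (SE 0.16), or -0.08 without CPIP+ETA 2 and -0.30 without CPIP+ETA 1, and Pcdhga1 by -0.39 (SE 0.51). Pcdhb21, chosen after its values were seen, was at 0.379 and 1.31 CPM in Sham+Veh, at 1.62 and 1.51 with CPIP+Veh and at 0.957 and 1.20 with CPIP+ETA. Its log2 fold change was 0.89 (SE 0.54) for CPIP+Veh against Sham+Veh and -0.54 (SE 0.53) for CPIP+ETA against CPIP+Veh, with neither unadjusted p under 0.05. Leaving out Sham+Veh 1 brought the first to 0.26, and leaving out Sham+Veh 2 to 2.03. Pcdhgc3 (91.9 and 94.0 CPM in CPIP+ETA, log2 fold change 0.01, SE 0.08), Pcdhgc5 (21.7 and 17.3 CPM, 0.13, SE 0.17) and Pcdha4 (314 and 284 CPM, -0.05, SE 0.06) overlapped with CPIP+Veh. Over the 35 members 16 values were above 0 and 19 below, with a median of -0.05 against -0.002 over all genes. The libraries of the groups did not overlap for 3 higher and 10 lower members (37.1%), against 32.6% of all genes (15.7% higher and 16.9% lower).

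**Figure D4:**
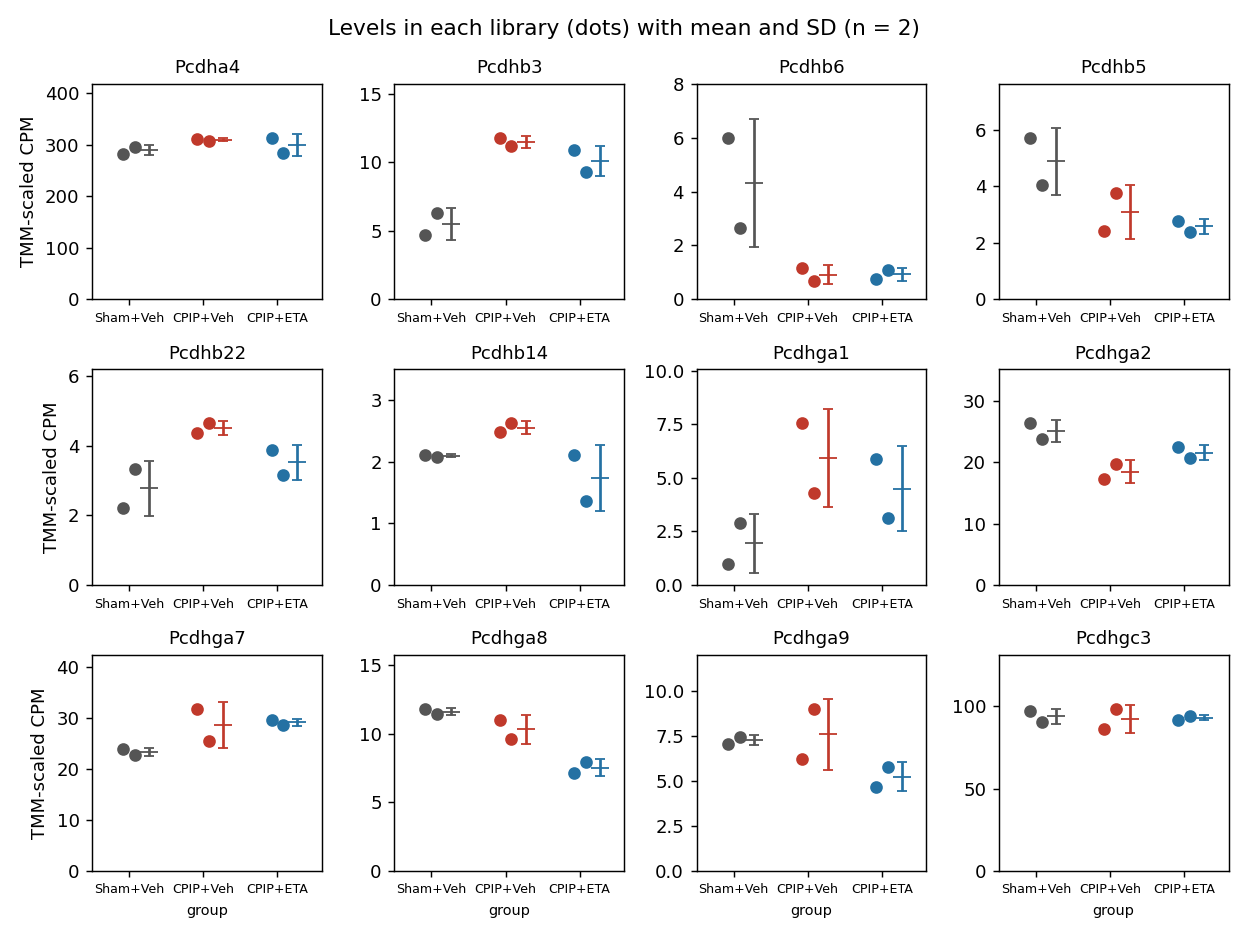
TMM-scaled CPM (y axis, from 0) of 12 members in each library (dots), with the mean and SD of each group (n = 2), by group (x axis). Pcdhb3 and Pcdhga1 are higher and Pcdhb6 lower in all 4 CPIP libraries than in the sham pair, Pcdhga8, Pcdhga9 and Pcdhb14 have their lowest library in CPIP+ETA, and Pcdhgc3 overlaps in all 3 groups.

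CPIP+ETA against Sham+Veh sets the treated injury beside the uninjured state, and it shares its sham libraries with the first comparison and its etanercept libraries with the second. Pcdhb3 had a log2 fold change of 0.88 (SE 0.17, edgeR adjusted p = 0.486), with means of 5.47 ± 1.16 and 10.1 ± 1.11 CPM (n = 2). Pcdhb6 had one of -2.22 (SE 0.50, edgeR adjusted p = 0.531), and -1.50 without Sham+Veh 1. Pcdhb5, at 2.77 and 2.40 CPM in CPIP+ETA, had one of -0.92 (SE 0.29, edgeR adjusted p = 0.674) and did not overlap with sham.

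Among gamma genes Pcdhga8 had a log2 fold change of -0.63 (SE 0.12, edgeR adjusted p = 0.486) and Pcdhgb4 one of -0.57 (SE 0.21, edgeR adjusted p = 0.76). Pcdhga7, at 29.6 and 28.7 CPM in CPIP+ETA, had one of 0.32 (SE 0.12, edgeR adjusted p = 0.75), and Pcdhga1 one of 1.22 (SE 0.56), with 0.64 when Sham+Veh 1 was left out and 2.21 when Sham+Veh 2 was. Both Pcdhga7 libraries of CPIP+ETA were above both sham libraries, by more than the spread within either group. Pcdhgc3 (-0.02, SE 0.08), Pcdhgc5 (-0.01, SE 0.17) and Pcdha4 (0.05, SE 0.06) overlapped with sham. The beta rows recorded as Pcdhb16 (LOC108348771, 2.87 and 2.99 CPM in CPIP+ETA) and Pcdhb15 (LOC108348201, 3.63 and 2.50 CPM) were also above sham. Their log2 fold changes were 0.79 (SE 0.23) for the first and 0.69 (SE 0.28) for the second, and 0.40 for the second without CPIP+ETA 1. Pcdhb6l (LOC108348233) overlapped with sham, at 1.96 and 1.47 CPM in CPIP+ETA, and RGD1560482 was above sham, at 0.604 and 0.762 CPM. Of all genes tested, 17.2% had both CPIP+ETA libraries above both sham libraries.

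With edgeR 0 of 35 members passed at an adjusted p under 0.05 in CPIP+ETA against Sham+Veh, against 3 genes (0.0193%) of all tested. DESeq2 and limma-voom also called 0 members, against 0.322% and 0.00644% of all genes. At an unadjusted p under 0.05 there were 2 higher and 4 lower members (17.1%) against 6.37% of all genes (2.64% higher and 3.73% lower). Of the members 18 were above 0 and 17 below, with a median of 0.01, and the median size regardless of sign was 0.32 against 0.09 over all genes. The groups' libraries did not overlap for 10 higher and 10 lower members (57.1%), against 35.7% of all genes (17.2% higher and 18.5% lower).

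Other genes of the family and its pathway were taken from 3 lists. Non-clustered protocadherins and related cadherins, adhesion genes with promoters outside the clusters, had 19 of 21 genes tested, and 0 passed in any of the 3 comparisons. For CPIP+Veh against Sham+Veh 10 were above 0 and 9 below, with a median of 0.02, and the lowest p values belonged to Fat1 (log2 fold change -0.19, SE 0.07), an atypical cadherin, and Pcdh8 (0.49, SE 0.20), an activity-regulated protocadherin. For CPIP+ETA against CPIP+Veh 11 were above 0 and 8 below (median 0.08), led by Pcdh8 (-0.66, SE 0.20) and Pcdh18 (-0.42, SE 0.15). For CPIP+ETA against Sham+Veh 10 were above 0 and 9 below (median 0.01), led by Fat1 (-0.21, SE 0.07) and Pcdh17 (0.20, SE 0.07). The value of Pcdh18 was -0.24 without CPIP+Veh 2, that of Pcdh8 against sham 0.32 without CPIP+Veh 1, and that of Fat1 for CPIP+ETA against Sham+Veh -0.12 without CPIP+ETA 1.

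Regulators of promoter choice (CTCF, cohesin and its loaders, DNA methyltransferases, TET enzymes, Smchd1 and others) had 25 of 25 genes tested, and 0 passed in any comparison. Their medians were -0.001, 0.02 and 0.03 in the order of the comparisons above, with 12, 17 and 16 genes above 0. The lowest p values belonged to Setdb1, a histone methyltransferase (-0.16, SE 0.08), and the cohesin subunit Stag1 (-0.12) for CPIP+Veh against Sham+Veh. They belonged to Tet3, which oxidises methylated cytosine (-0.21, SE 0.07), and the cohesin cofactor Pds5b (0.10) for CPIP+ETA against CPIP+Veh, and to Tet3 (-0.14) and Setdb1 (-0.14) for CPIP+ETA against Sham+Veh. Leaving out 1 library brought Setdb1 to -0.11 (without Sham+Veh 1) and Stag1 to -0.07 (without Sham+Veh 2) in the first, Pds5b to 0.05 (without CPIP+Veh 2) in the second and Setdb1 to -0.06 (without CPIP+ETA 1) in the third.

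Partners and effectors, among them focal adhesion kinases, gamma-secretase subunits, the WAVE complex and neuroligins, had 30 of 30 genes tested, and 0 passed with edgeR in any comparison. Their medians were -0.003, 0.02 and -0.001, with 15, 16 and 15 genes above 0. For CPIP+Veh against Sham+Veh the lowest p values belonged to the WAVE subunit Brk1 (-0.17, SE 0.05) and the synaptic adhesion gene Nlgn1 (0.22, SE 0.10). For CPIP+ETA against CPIP+Veh they belonged to Marcks, an actin-binding substrate of protein kinase C (-0.44, SE 0.07, edgeR adjusted p = 0.721, DESeq2 adjusted p = 0.00535), and the gamma-secretase subunit Aph1a (-0.16). For CPIP+ETA against Sham+Veh they belonged to Marcks (-0.36, SE 0.07, edgeR adjusted p = 0.515) and the gamma-secretase subunit Ncstn (-0.18, SE 0.05).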

How the data were processed

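Bulk RNA-seq of 6 libraries in 3 groups was analysed from the expected counts per gene that the authors deposited, grouped by the labels. Per the labels' protocols, ganglia went into RNAlater, Trizol was used for RNA, preparations needed a RIN of 8 or more, and the BGISEQ-500 was the sequencer. The submitters' processing notes name the build Rnor 6.0. Aligner, counting program, annotation, strand setting and treatment of shared reads: not given in the sources used here.

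Counts were rounded, and 2907 blank rows were read as 0. A fit of all 6 libraries was made with edgeR 4.0.16 in R 4.3.3 (TMM scaling, filterByExpr, quasi-likelihood F-test, group as the only term), which tested 15531 genes. It had 3 residual and 3.64 prior degrees of freedom and a common coefficient of variation of 10.3%. Calls used a Benjamini-Hochberg adjusted p under 0.05 over all genes tested, and SE is the log2 fold change over the square root of F. The fit was tested on simulated data. DESeq2 1.42.0, limma 3.58.1 (voom), other scalings and filters, and leaving out each library were alternatives. Poisson intervals and floors cover counting error only. Identifiers were looked up in RefSeq's GRCr8 table (20690 matched).

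Members and gene lists were chosen with earlier results of these data known. Genes named were, in each cluster, the 3 with the lowest p in each comparison, the highest and lowest level and the C-type isoforms, and the 2 with the lowest p of each other list. The planned order of levels per coding length could not be made without coding lengths. The span of short beta gene records was used in its place, chosen after seeing the data.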

Additional observations from a re-analysis of the deposited data

How the results depend on the processing

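The count of members called was 0 in all 3 comparisons with the main edgeR fit and each alternative that kept every library, with 1 exception. DESeq2 called 1 member, Pcdhb3, in CPIP+Veh against Sham+Veh (log2 fold change 1.07). The members tested were 35, or 36 with no filter. The median log2 fold change of the members, main and lowest to highest when a library was left out, was 0.066 (-0.034 to 0.126) for CPIP+Veh against Sham+Veh, -0.049 (-0.136 to -0.025) for CPIP+ETA against CPIP+Veh and 0.008 (0.007 to 0.094) for CPIP+ETA against Sham+Veh. The furthest of each moved by more than the spread between the library medians within a group (SD 0.07 on the log2 scale), without CPIP+Veh 2, CPIP+Veh 1 and CPIP+ETA 2 in turn, and the alternatives that kept every library moved each by less. Of 896 values of 56 named results under an alternative, 877 kept their direction and their side of the threshold, 17 turned in direction and 2 passed the threshold (Pcdhb3, and Marcks in CPIP+ETA against CPIP+Veh, -0.44, both with DESeq2). Upper-quartile scaling turned Pcdhgc3 in CPIP+ETA against CPIP+Veh to -0.001, and the others that turned did so when a library was left out: Pcdhgc3 ranged from -0.123 to 0.068 in CPIP+Veh against Sham+Veh, -0.078 to 0.107 in CPIP+ETA against CPIP+Veh and -0.063 to 0.045 in CPIP+ETA against Sham+Veh. Pcdhgc5 ranged from -0.381 to 0.065, -0.072 to 0.38 and -0.171 to 0.148. Pcdha4 ranged from -0.121 to 0.021 in CPIP+ETA against CPIP+Veh and -0.021 to 0.12 in CPIP+ETA against Sham+Veh. In CPIP+ETA against CPIP+Veh Pcdhb6 ranged from -0.338 to 0.488 and Pcdhga1 from -0.927 to 0.076. The cause was not tested. A library left out leaves a lone library, assumed to vary like the other groups.

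The replicate numbers in the titles went with little shared difference. The differences between libraries 1 and 2 correlated across 15531 genes at r = 0.03, -0.11 and 0.05 between the pairs of groups. The labels do not say whether the numbers pair libraries, and low correlations cannot settle it. With the number as a replicate block, 0 members were called in each comparison. Counting error is widest for low members. The 12.5 counts of Pcdhb6 in CPIP+Veh 2, rounded to a whole number, have an exact 95% Poisson interval of 6.92 to 22.2. Its sham libraries differed beyond such error. With 2 libraries a group the spread within a group is itself poorly known.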
